A study of Mus musculus with 2 samples.

Results

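The collagen family was described in subcutaneous (inguinal) white fat of obese mice as the 44 protein-coding genes, of 37315 genes listed, whose mouse symbol is Col, a number, the letter a and a number. The entacapone group was 1 library from male C57BL/6 mice, 23 weeks old, made obese with a high-fat diet and given entacapone. The vehicle group was 1 library from male C57BL/6 mice of the same age and diet-induced obesity given vehicle. Entacapone is a Parkinson disease drug that blocks catechol-O-methyltransferase and is also known to inhibit the RNA demethylase FTO. The sources used here give neither the dose and duration nor how many mice went into a library. Each group is a single library, so no difference below has a replicate check or a p-value, and each is a difference between these libraries only. In bulk tissue, fewer cells of a type and less RNA per cell cannot be told apart.

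Collagens are secreted proteins of 3 chains wound into a triple helix, and each chain has its own gene. Fibrillar collagens (types I, III and V among them) form the cables of connective tissue. Type IV chains form the sheet-like network of basement membranes, which in fat wraps every adipocyte and every capillary. Type VI chains form beaded filaments close to that basement membrane, and the end fragment of the Col6a3 chain, endotrophin, is known from obese fat. FACIT collagens sit on fibril surfaces, and multiplexins (types XV and XVIII) sit at basement membranes. Fat fibrosis in obesity is a build-up of these proteins.

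Levels are given as CPM, reads per 1000000 reads of a library after edgeR TMM scaling, and ratios as log2 of the entacapone over the vehicle value. The interval after each ratio is an exact 95% Clopper-Pearson interval that covers counting error only. The entacapone library held 12979673 counted reads and the vehicle library 13620056. A gene counted as measured where its 2 values averaged 1 CPM or more, which 13361 genes and 28 of the 44 collagen genes reached. Of these 28, only Col17a1 was under 1 CPM in either library, so it entered through its entacapone value. All 10 adipocyte markers listed were measured, as the tissue label would have it. They ran from 207 to 15293 CPM in entacapone fat and from 106 to 11008 CPM in vehicle fat.

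Promoter sequences were available from RefSeq (GRCm38.p6, the assembly also called mm10) for 35 of the 44 genes, 23 of them measured. They are shown for Col3a1, the fibrillar chain with the most reads and a lower level in the entacapone library. Col5a1 and Col5a3, fibrillar chains whose levels were close between the libraries, are shown beside it. Each run is the 250 bases before the transcription start, 5′ to 3′ on the gene's strand. Capitals mark the TATA box TATAAA, the CCAAT box CCAAT and the GC box GGGCGG, searched on both strands (as TTTATA for the first, ATTGG for the second and CCGCCC for the third), and no marked motifs overlap.
Col3a1 (chr1:45311288-45311537, plus strand): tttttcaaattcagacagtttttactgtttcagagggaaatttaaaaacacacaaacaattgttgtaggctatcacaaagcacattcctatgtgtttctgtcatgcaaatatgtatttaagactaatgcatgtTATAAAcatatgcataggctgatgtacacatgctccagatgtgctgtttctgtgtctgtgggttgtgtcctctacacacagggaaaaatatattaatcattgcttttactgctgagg
Col5a1 (chr2:27886175-27886424, plus strand): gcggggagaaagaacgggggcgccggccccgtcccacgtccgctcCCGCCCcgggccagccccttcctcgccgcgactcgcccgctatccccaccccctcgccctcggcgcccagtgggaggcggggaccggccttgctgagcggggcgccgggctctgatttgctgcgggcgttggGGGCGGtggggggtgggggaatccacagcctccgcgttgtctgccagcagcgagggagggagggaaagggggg
Col5a3 (chr9:20815068-20815317, minus strand): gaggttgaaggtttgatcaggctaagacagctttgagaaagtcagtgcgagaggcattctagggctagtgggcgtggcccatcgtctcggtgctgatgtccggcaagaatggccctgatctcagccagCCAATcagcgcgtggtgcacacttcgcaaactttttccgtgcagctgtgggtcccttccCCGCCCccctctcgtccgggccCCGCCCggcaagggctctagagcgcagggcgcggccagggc
The Col3a1 run held TATAAA starting 117 bases before the start and neither of the other motifs. The Col5a3 run held CCAAT at 122 bases and the GC box, as CCGCCC on the printed strand, at 63 and 41 bases before the start. The Col5a1 run held the GC box at 205 bases (as CCGCCC) and at 73 bases (as GGGCGG). Over 32851 windows of this length, 12.4% held TATAAA, 33.8% CCAAT and 32.7% GGGCGG. Of the 35 collagen genes, 5 held TATAAA, 12 CCAAT and 21 GGGCGG. The collagen counts take a single window per gene. The 32851 windows were not reduced to a single window per gene or to protein-coding genes, so these shares are not like for like. The genes shown were chosen by their levels and do not stand for lower or near-unchanged collagen genes in general. The GC box was also found for Col1a2, Col4a5, Col8a1 and Col16a1, which were lower in the entacapone library. TATAAA was also found for Col17a1, which was higher. A match of letters describes the sequence and does not show a bound site.

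Col4a1 and Col4a2, the main type IV chains, lie head to head. Their RefSeq starts face each other, so that 22 bases are transcribed from both strands, and these are shown because the kit used does not mark strand.
Col4a1 and Col4a2 overlap (chr8:11312805-11312826, plus strand): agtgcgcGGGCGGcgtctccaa
Capitals again mark GGGCGG. Reads within these bases cannot be assigned by strand. The overlap is 0.295% of the Col4a1 merged exon length.

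Collagen transcripts were less abundant in the entacapone library. The 44 genes took 1.63% of the entacapone reads and 2.12% of the vehicle reads. Their summed level was 16520.5 CPM in the entacapone library and 20903 CPM in the vehicle library, a log2 ratio of -0.34 (-0.35 to -0.33). Of the 28 measured genes, 18 were lower beyond counting error (64.3%, beside 21.1% of all 13361 measured genes), and 2 were higher (Col5a3 and Col17a1, 7.14% beside 20.2%). At least 1.5-fold lower with an interval excluding 1 were 8 of 28 (28.6% beside 7.90%), namely Col1a2, Col3a1, Col4a5, Col12a1, Col14a1, Col16a1, Col8a1 and Col28a1. At least 1.5-fold higher was Col17a1 alone (3.57% beside 4.16%). At 2-fold, 1 of 28 was lower (Col14a1, 3.57% beside 3.50%) and 1 of 28 higher (Col17a1, 3.57% beside 1.66%). The lower share at 2-fold was thus close to that of all measured genes. The median log2 ratio, with 0.5 CPM added to each value, was -0.35 over the measured collagen genes and 0.00 over all measured genes. Among abundant genes the values were similar: over the 13 collagen genes averaging at least 100 CPM it was -0.34, beside 0.04 over the 1746 genes of that abundance. At this abundance, 2 of 13 collagen genes (15.4%) were at least 1.5-fold lower, beside 59 of 1746 (3.38%). At least 1.5-fold higher were 0 of 13, beside 53 of 1746 (3.04%). Intervals narrow with more reads, so the any-size shares of collagen and all measured genes are not at like depth.

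**Figure D1:**
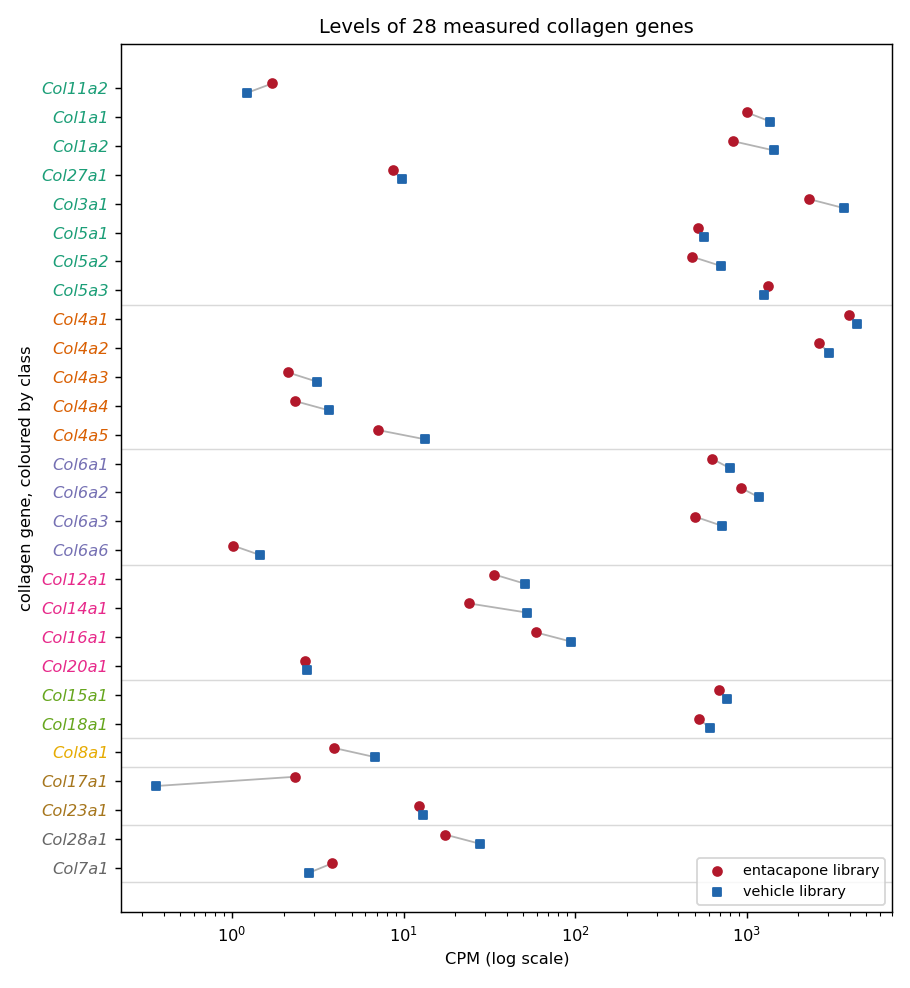
Level of each measured collagen gene in CPM (log scale) in the entacapone library (circles) and the vehicle library (squares), with gene names coloured by class. The 13 genes above 100 CPM belong to the fibrillar, type IV, type VI and multiplexin classes, and 12 of these 13 circles lie left of their squares, Col5a3 being the exception.

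Type I collagen, the main fibril of connective tissue, is built from the Col1a1 and Col1a2 chains, and the Col1a2 ratio was the lower of the pair. Col1a1 (chromosome 11, 94936224 to 94953042, coordinates here and below in mm10) stood at 999 CPM in the entacapone library and 1378 CPM in the vehicle library. Its log2 ratio was -0.46 (-0.50 to -0.43), under the 1.5-fold limit. Col1a2 (chromosome 6, 4504814 to 4541544) stood at 835 CPM in the entacapone library and 1445 CPM in the vehicle library. Its log2 ratio was -0.79 (-0.82 to -0.76), or 1.73-fold lower in the entacapone library. The vehicle library held the higher level of both chains, and the Col1a2 ratio was 0.797 (0.772 to 0.823) times the Col1a1 ratio by the exact conditional 95% interval, which does not depend on library scaling.

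Col3a1 (chromosome 1, 45311538 to 45349706), the single chain of type III collagen, which forms thin fibrils with type I in soft tissues, had the most reads of the fibrillar class. It stood at 2302 CPM in the entacapone library and 3716 CPM in the vehicle library. This was 1.61-fold lower in the entacapone library, with a log2 ratio of -0.69 (-0.71 to -0.67). Its rank by reads among all genes was 40 in the entacapone library and 18 in the vehicle library.

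Type V collagen regulates the diameter of type I fibrils, and its chains did not share a ratio. Col5a1 stood at 523 CPM in the entacapone library and 563 CPM in the vehicle library, a log2 ratio of -0.11 (-0.16 to -0.06). Col5a2 stood at 482 CPM in the entacapone library and 710.4 CPM in the vehicle library, a log2 ratio of -0.56 (-0.61 to -0.51). The Col5a2 ratio was 0.731 (0.698 to 0.765) times the Col5a1 ratio. Col5a3 (chromosome 9, 20770050 to 20815067), the third and less widely expressed type V chain, stood at 1326 CPM in the entacapone library and 1262 CPM in the vehicle library. Its log2 ratio of 0.07 (0.04 to 0.10) lay just above 0, and it was the only fibrillar gene higher beyond counting error in the entacapone library. After a loess fit on length and GC content was subtracted, the sign turned, at -0.01.

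The remaining fibrillar genes had few reads. Col27a1, a fibrillar chain known from cartilage, was within counting error at 8.67 CPM in the entacapone library and 9.77 CPM in the vehicle library (log2 ratio -0.17, interval -0.55 to 0.20). Col11a2, another cartilage fibril chain, had 22 entacapone reads and 17 vehicle reads, and its log2 ratio of 0.48 (-0.50 to 1.49) was within counting error. Col2a1, the main cartilage collagen, had 1 read in each library. Col11a1 had 6 entacapone reads and 3 vehicle reads, and Col24a1 had 3 entacapone reads and 2 vehicle reads, both too few to compare.

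**Figure D2:**
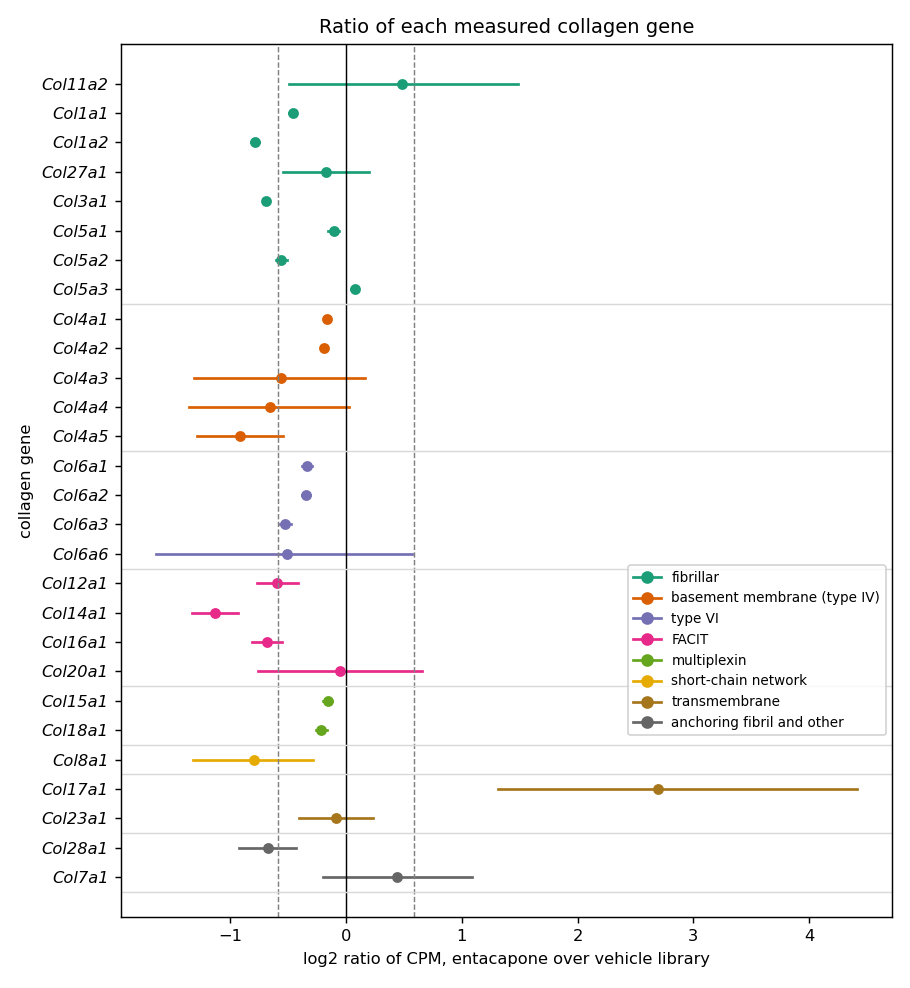
Log2 ratio of CPM, entacapone over vehicle library, of each measured collagen gene (points, coloured by class) with exact 95% counting intervals (lines, hidden behind the point where narrow). Dashed lines mark 1.5-fold in either direction. Col14a1 lies lowest at -1.13 and Col17a1 highest at 2.70.

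The abundant pair of type IV chains was only slightly lower in the entacapone library. Col4a1 (chromosome 8, 11198423 to 11312826), the most abundant collagen gene by reads in both libraries, stood at 3943 CPM in the entacapone library and 4426 CPM in the vehicle library, a log2 ratio of -0.17 (-0.18 to -0.15). Col4a2 (chromosome 8, 11312805 to 11449287), its partner in the common type IV trimer, stood at 2643 CPM in the entacapone library and 3027 CPM in the vehicle library, a log2 ratio of -0.20 (-0.22 to -0.17). Both were lower in the entacapone library by 1.12-fold and 1.15-fold, and the Col4a2 ratio was 0.980 (0.962 to 0.999) times that of Col4a1.

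The chains of the specialised type IV networks were scarce, and of these 4 only Col4a5 was lower beyond counting error. Col4a5, known from kidney and other basement membranes, stood at 7.11 CPM in the entacapone library and 13.4 CPM in the vehicle library. This was 1.88-fold lower in the entacapone library (log2 ratio -0.91, interval -1.29 to -0.54), past the 1.5-fold limit. Its partners in that network, Col4a3 and Col4a4, were within counting error. Col4a3 had 27 entacapone reads and 43 vehicle reads (log2 ratio -0.56, interval -1.31 to 0.17). Col4a4 had 30 entacapone reads and 51 vehicle reads (log2 ratio -0.66, interval -1.36 to 0.02). Col4a6 had 5 entacapone reads and 8 vehicle reads, too few to compare. The median log2 ratio of the 5 measured type IV genes, -0.47, was lower than the ratio of their summed reads, -0.18.

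Of the 6 type VI genes, Col6a1, Col6a2 and Col6a3 were lower beyond counting error in the entacapone library, none of them past 1.5-fold, and the other 3 had too few reads to give a direction. Col6a1 (chromosome 10, 76708792 to 76726168) stood at 633 CPM in the entacapone library and 800.0 CPM in the vehicle library, a log2 ratio of -0.34 (-0.38 to -0.30). Col6a2 (chromosome 10, 76595762 to 76623630) stood at 925 CPM in the entacapone library and 1175 CPM in the vehicle library, a log2 ratio of -0.35 (-0.38 to -0.31). The ratios of these neighbouring chains did not differ beyond counting error, the Col6a2 ratio being 0.996 (0.959 to 1.03) times that of Col6a1. Col6a3 (chromosome 1, 90765923 to 90843971), the long chain that carries endotrophin at its end, stood at 503 CPM in the entacapone library and 724 CPM in the vehicle library. Its log2 ratio of -0.53 (-0.57 to -0.48) was lower than that of its partners, at 0.879 (0.842 to 0.917) times the Col6a1 ratio. The alternative chains that can stand in for Col6a3 were barely detected. Col6a6 had 13 entacapone reads and 20 vehicle reads (log2 ratio -0.51, interval -1.64 to 0.57), Col6a5 had 6 entacapone reads and 13 vehicle reads, and Col6a4 had 5 entacapone reads and 4 vehicle reads.

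By summed reads, the fibrillar class had the lowest ratio of these 3 classes, type VI came next and type IV was closest to 0. By the median over measured genes the order was the reverse, with -0.31 for the 8 fibrillar genes, -0.35 for the 4 type VI genes and -0.47 for the 5 type IV genes, so the summed order is that of the few abundant chains. Reads summed over the 11 fibrillar genes came to 6479 CPM in the entacapone library and 9086 CPM in the vehicle library, a log2 ratio of -0.49 (-0.50 to -0.48). The 6 type VI genes came to 2062 CPM in the entacapone library and 2701 CPM in the vehicle library, a log2 ratio of -0.39 (-0.41 to -0.37). The 6 type IV genes came to 6598 CPM in the entacapone library and 7474 CPM in the vehicle library, a log2 ratio of -0.18 (-0.19 to -0.17). The fibrillar ratio was 0.808 (0.798 to 0.818) times the type IV ratio, and the type VI ratio was 0.865 (0.849 to 0.881) times the type IV ratio. The fibrillar ratio was 0.934 (0.917 to 0.951) times the type VI ratio. These are exact conditional 95% intervals of counting error, and they carry no variation between mice. With the gene holding the most reads left out of each class (Col3a1, Col4a1 and Col6a2), the fibrillar ratio was 0.893 times the type IV ratio. The order of fibrillar and type VI then turned, at 1.04.

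**Figure D3:**
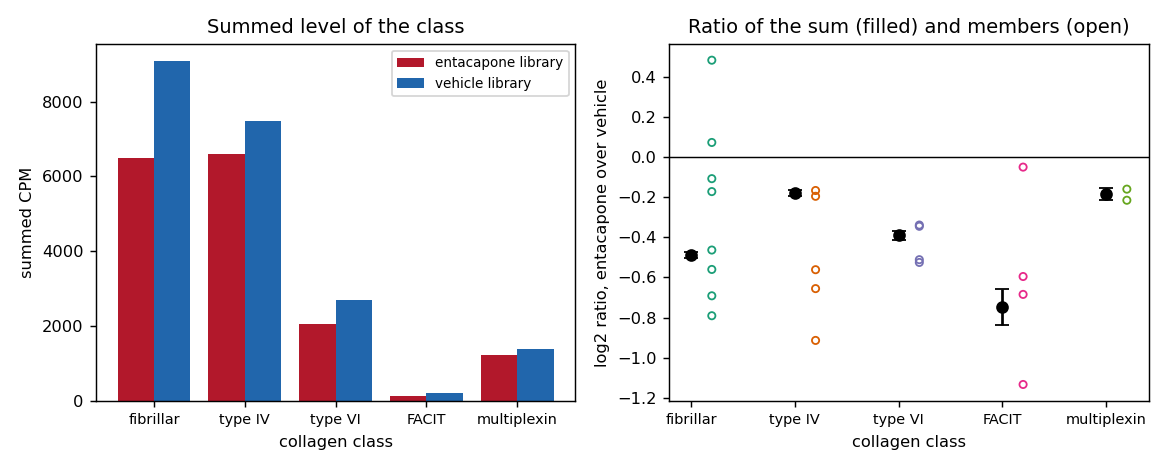
Left, summed CPM of the 5 collagen classes with the most reads in the entacapone library (first bar of each pair) and the vehicle library (second bar). Right, log2 ratio of the summed reads (filled points, bars are exact 95% counting intervals) and of the measured members (open points). Type IV and multiplexin sums lie nearest 0, at -0.18 and -0.18, and the FACIT sum lowest at -0.75.

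Levels of different genes were compared per length, as RPKM, the CPM per kilobase of merged exon. On this scale Col4a1 was highest of the family, at 528 RPKM in the entacapone library and 593 RPKM in the vehicle library, followed by Col4a2 at 399 RPKM in the entacapone library and 457 RPKM in the vehicle library. Col3a1 came next at 234 RPKM in the entacapone library and 379 RPKM in the vehicle library, and with the length of the longest transcript it came before Col4a2 in both libraries. Col5a3 stood at 195 RPKM in the entacapone library and 185 RPKM in the vehicle library. Col1a1 stood at 152 RPKM in the entacapone library and 209.9 RPKM in the vehicle library, so Col5a3 was above it in the entacapone library and below it in the vehicle library. Type IV genes made up 42.3% of the summed collagen RPKM in the entacapone library and 38.8% in the vehicle library. Fibrillar genes made up 34.7% in the entacapone library and 38.0% in the vehicle library. Type VI genes made up 13.6% in the entacapone library and 14.2% in the vehicle library. Which class leads depends on the length used: with the length of the longest transcript, the fibrillar share was 39.7% in the entacapone library and 44.3% in the vehicle library, above the type IV share, which was 36.7% in the entacapone library and 32.6% in the vehicle library. With either length the fibrillar share was lower, and the type IV share higher, in the entacapone library.

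Chains of 1 trimer were also set against each other per length. Col1a1 was 2.26 times Col1a2 in the entacapone library and 1.81 times in the vehicle library. With the longest transcript these proportions were 1.08 in the entacapone library and 0.860 in the vehicle library, so the proportion itself rests on the length used while its difference between libraries does not. Col4a1 was 1.32 times Col4a2 in the entacapone library and 1.30 times in the vehicle library. Of the type V chains, Col5a3 was 3.16 times Col5a1 in the entacapone library and 2.79 times in the vehicle library. Col5a3 was also above Col5a2 in both libraries, and above both chains with the longest transcript as well. Col6a2 was 2.64 times Col6a3 in the entacapone library and 2.33 times in the vehicle library, so Col6a3 was the scarcest of the main type VI chains in each, with the longest transcript as well.

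FACIT collagens had the lowest summed ratio of the 5 classes with the most reads. Summed over 9 genes, they came to 121 CPM in the entacapone library and 203 CPM in the vehicle library, a log2 ratio of -0.75 (-0.84 to -0.65), which was 0.837 (0.785 to 0.891) times the fibrillar ratio. Col14a1 (chromosome 15, 55307750 to 55520803), a fibril-surface collagen of dermis and fascia, stood at 24.1 CPM in the entacapone library and 52.8 CPM in the vehicle library. Its log2 ratio of -1.13 (-1.33 to -0.94), a 2.19-fold difference, was lowest among measured collagen genes. Col16a1 stood at 58.8 CPM in the entacapone library and 94.5 CPM in the vehicle library, a log2 ratio of -0.68 (-0.82 to -0.55). Col12a1, which decorates type I fibrils, stood at 33.8 CPM in the entacapone library and 51.1 CPM in the vehicle library, a log2 ratio of -0.60 (-0.77 to -0.42). All 3 passed the 1.5-fold limit, Col12a1 narrowly at 1.51-fold. Col20a1 was within counting error with 34 entacapone reads and 38 vehicle reads (log2 ratio -0.05, interval -0.76 to 0.66), and 79 bases of its exons overlap another listed gene on the same strand.

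The multiplexins resembled type IV in size of difference. Col15a1, a basement membrane collagen of muscle, vessels and fat, stood at 690.4 CPM in the entacapone library and 771 CPM in the vehicle library, a log2 ratio of -0.16 (-0.20 to -0.12). Col18a1, whose end fragment is endostatin, stood at 529 CPM in the entacapone library and 614 CPM in the vehicle library, a log2 ratio of -0.22 (-0.26 to -0.17). The summed multiplexin ratio was 0.997 (0.974 to 1.02) times the type IV ratio, an interval that holds 1 and bounds any difference within it.

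Col17a1 (chromosome 19, 47646344 to 47692094), a transmembrane collagen that anchors basal keratinocytes to the basement membrane, went the other way. It had 30 entacapone reads and 5 vehicle reads, at 2.34 CPM in the entacapone library and 0.362 CPM in the vehicle library. Its ratio was 6.48-fold higher in the entacapone library, with a wide log2 interval at 2.70 (1.31 to 4.42). Col17a1 was measured only through its entacapone value, so the limit of 1 CPM partly sets its direction. Col7a1, which forms the anchoring fibrils beneath the epidermis, had 49 entacapone reads and 39 vehicle reads and was within counting error (log2 ratio 0.44, interval -0.20 to 1.08). Skin and mammary epithelium markers were higher beyond counting error in 9 of 12 and lower in 0, where all measured genes gave 20.2% higher and 21.1% lower. Their summed level was 111 CPM in the entacapone library and 35.8 CPM in the vehicle library, with none at 0 in either. Among them Krt1 (0.145 CPM) and Cdh1 (0.941 CPM) were under 1 CPM in the vehicle library. Both entered through their entacapone value, so the limit partly sets their direction. Krt14, a keratin of basal keratinocytes, stood at 29.1 CPM in the entacapone library and 7.53 CPM in the vehicle library. The part of these markers in the Col17a1 ratio was not tested.

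Other measured members were scarce. Col28a1, a collagen known from peripheral nerve, stood at 17.4 CPM in the entacapone library and 27.9 CPM in the vehicle library and was 1.60-fold lower in the entacapone library (log2 ratio -0.68, interval -0.92 to -0.44). Of 6 measured Schwann cell markers, 2 were lower and 2 higher beyond counting error, set against the same all-gene shares. Col8a1, a network collagen of vessel walls, had 50 entacapone reads and 94 vehicle reads and a log2 ratio of -0.80 (-1.33 to -0.29). Col23a1, a transmembrane collagen, was within counting error at 12.3 CPM in the entacapone library and 13.0 CPM in the vehicle library (log2 ratio -0.09, interval -0.41 to 0.23).

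In all, 16 members were below the limit of 1 CPM, and 6 of them are named with their classes above. Of the other 10, Col9a3 had 12 entacapone reads and 10 vehicle reads, and its exons overlap those of Tcfl5 on the opposite strand. Col13a1 had 9 entacapone reads and 14 vehicle reads and Col22a1 had 7 entacapone reads and 9 vehicle reads. Col8a2 and Col10a1 each had 4 entacapone reads and 7 vehicle reads, and Col26a1 had 4 entacapone reads and 6 vehicle reads. Col19a1, Col9a2 and Col9a1 had at most 2 reads in either library, and Col25a1 had none. A count of 0 allows up to 3 reads, which is 0.234 CPM in the entacapone library and 0.217 CPM in the vehicle library. Cartilage collagens (Col2a1, the type IX and type XI genes, and Col10a1) were all at or under 22 reads. Col27a1, also known from cartilage, was above this, with 111 entacapone reads and 135 vehicle reads. Of 9 cartilage markers, Matn1, Matn3 and Ucma had no read in either library, Acan had 0 entacapone reads and 3 vehicle reads, and Cnmd and Hapln1 had at most 4 reads in either. Of the 3 measured markers, Chad was under 1 CPM in the entacapone library (0.547 CPM) and Sox9 in the vehicle library (0.941 CPM). Each entered only through its value in the other library, so the limit partly sets their directions. Comp, a matrix protein also made in tendon, had 38 entacapone reads and 135 vehicle reads (log2 ratio -1.72, interval -2.28 to -1.19). Chad had 7 entacapone reads and 21 vehicle reads (log2 ratio -1.47, interval -2.95 to -0.19). Sox9, a transcription factor also active outside cartilage, had 29 entacapone reads and 13 vehicle reads (log2 ratio 1.27, interval 0.28 to 2.33).

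Several members are neighbours in the genome. Col3a1 and Col5a2 lie tail to tail on chromosome 1, 24.6 kb apart, with log2 ratios of -0.69 and -0.56. Col4a3 and Col4a4 lie head to head, 71 bp apart, on the same chromosome, at -0.56 and -0.66. Both of their intervals hold 0 (-1.31 to 0.17 for Col4a3 and -1.36 to 0.02 for Col4a4). Col6a1 and Col6a2 lie in tandem on chromosome 10, 85.2 kb apart, at -0.34 and -0.35. With Col4a1 and Col4a2, these are the 4 neighbouring pairs under 100 kb with both genes measured. In each pair both values were below 0. So were most measured collagen genes, with an upper quartile of -0.15 over the 28 (0.5 CPM added). A shared side therefore does not set neighbours apart, and a closer likeness than in other pairs was not tested.

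Ratio and GC content of the transcript tended to run the same way over the collagen genes, given here as a description. Over the 28 measured collagen genes, GC content and log2 ratio had a Pearson r of 0.52 and a Spearman rho of 0.67. Over 13254 measured genes with a sequence they had a Pearson r of 0.06 and a rho of 0.08. The points share their libraries and genes are not independent replicates. Collagen genes at 45 to 50% GC (5 genes, Col5a2 and Col14a1 among them) had a median log2 ratio of -0.66, beside 0.01 for all measured genes in that range. Those at 60% or more (6 genes, Col4a2, Col5a3 and Col16a1 among them) had -0.06, beside 0.07. These genes were spread widely. Col16a1, at 61.4% GC, had a log2 ratio of -0.68 (-0.82 to -0.55). Col11a2 and Col7a1 had the highest ratios in this range, both within counting error. Partner chains of types I, V and VI followed the order of GC content, and those of type IV did not. Col1a2 had 55.7% GC and Col1a1 58.9%, and Col5a2 had 49.6% and Col5a1 58.0%, and in both pairs the chain with the lower GC content had the lower ratio. Col5a3 had 61.6% and the highest ratio of the type V chains. Col6a3 had 54.5%, Col6a2 55.2% and Col6a1 56.7%, with log2 ratios of -0.53, -0.35 and -0.34. The Col6a2 and Col6a1 ratios did not differ beyond counting error. Col4a1 had 57.7% and Col4a2 60.6%, and here the chain with the lower GC content had the higher ratio. Col4a3 (50.4%) and Col4a4 (51.1%) had values in that opposite order too, with intervals that overlap. With the trend in length and GC content over all measured genes removed, the median collagen ratio was -0.37, and 8 genes were again at least 1.5-fold lower.

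**Figure D4:**
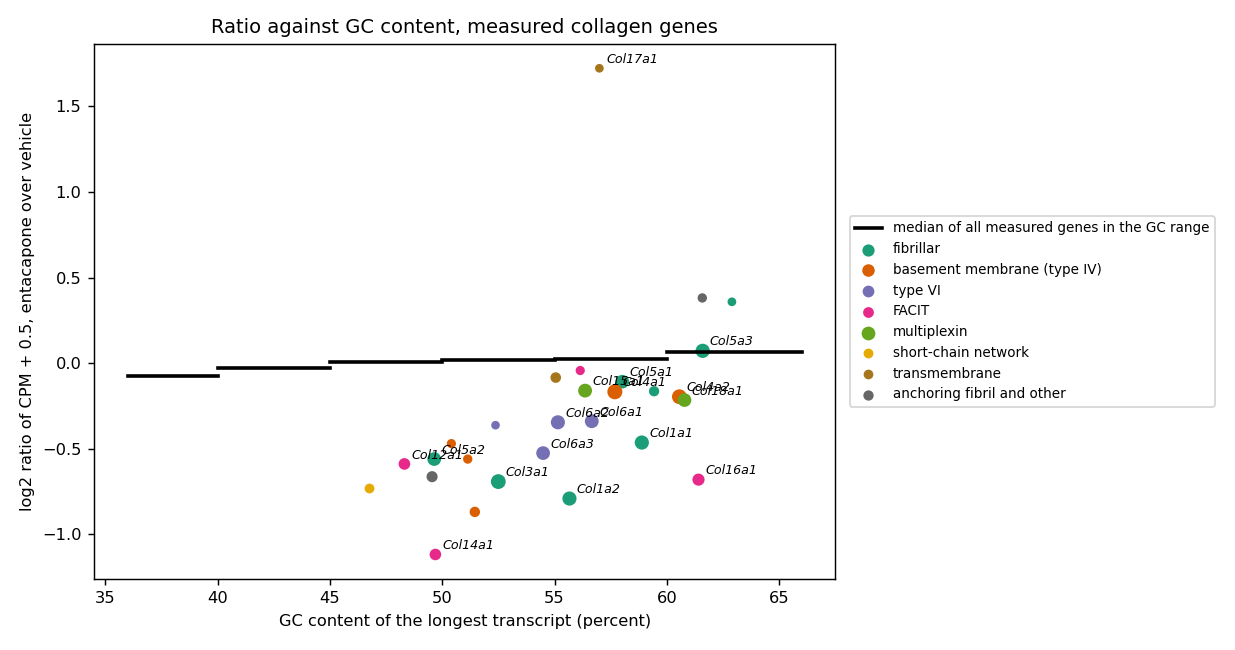
Log2 ratio of CPM + 0.5, entacapone over vehicle library, of the 28 measured collagen genes against the GC content of their longest transcript in percent (points, coloured by class, larger for higher CPM). Black lines are the median ratio of all measured genes in each GC range, from -0.07 under 40% to 0.07 at 60% or more, while the collagen medians span -0.66 to -0.06.

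Enzymes and chaperones that modify and fold collagen in the endoplasmic reticulum were in part lower in the entacapone library, none as far as Col3a1. Among 18 measured genes, 9 had lower and 1 had higher values beyond counting error, and none passed 1.5-fold (median log2 ratio -0.15). Over all measured genes the shares were 21.1% lower and 20.2% higher beyond counting error, and 7.90% lower and 4.16% higher past 1.5-fold, which applies to every list below. The lowest were P3h1, a prolyl 3-hydroxylase, and Serpinh1, the collagen chaperone HSP47. P3h1 stood at 49.2 CPM in the entacapone library and 72.5 CPM in the vehicle library (log2 ratio -0.56, interval -0.70 to -0.41). Serpinh1 stood at 733 CPM in the entacapone library and 1036 CPM in the vehicle library (log2 ratio -0.50, interval -0.54 to -0.46). The highest were P4ha2, a prolyl 4-hydroxylase subunit, at 0.21 (0.03 to 0.38), and P3h2 at 0.14 (-0.42 to 0.69). Only P4ha2 was higher beyond counting error.

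Genes of procollagen export and propeptide cleavage had values on both sides of 0. Among 13 of them, 5 had lower and 2 had higher values beyond counting error (median -0.01). Pcolce2, an enhancer of procollagen C-proteinase, was the 1 gene past 1.5-fold with an interval excluding 1. It stood at 87.4 CPM in the entacapone library and 178 CPM in the vehicle library (log2 ratio -1.02, interval -1.13 to -0.92). Bmp1, that proteinase, was next in the order with 0.5 CPM added, at -0.54 (-0.66 to -0.43). Adamts3, with 11 entacapone reads and 18 vehicle reads, was within counting error at -0.60 (-1.83 to 0.56). Creb3l1, a transcription factor known to activate collagen secretion genes, was highest at 0.34 (0.17 to 0.50), and the protease Furin followed at 0.27 (0.15 to 0.38). Among 7 cross-linking genes, 5 had lower and 1 had higher values beyond counting error, none past 1.5-fold (median -0.14). Among these the lysyl oxidase genes Loxl3 (log2 ratio -0.46, interval -0.79 to -0.15) and Lox (log2 ratio -0.26, interval -0.32 to -0.20) were lowest. Loxl4 (log2 ratio 0.41, interval -0.14 to 0.97) and the transglutaminase Tgm2 (log2 ratio 0.13, interval 0.07 to 0.19) were highest.

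Most genes on the list of small leucine-rich and fibril-associated matrix proteins had lower RNA levels in the entacapone library. Among 11 of these genes, 10 had lower values beyond counting error, 5 of them by at least 1.5-fold, and 1 had a higher one (median -0.52). Asporin (Aspn) stood at 15.2 CPM in the entacapone library and 37.4 CPM in the vehicle library (log2 ratio -1.30, interval -1.55 to -1.06), and lumican (Lum) was at -1.02 (-1.17 to -0.87). Podn, which encodes podocan, was the exception at 95.2 CPM in the entacapone library and 62.4 CPM in the vehicle library (log2 ratio 0.61, interval 0.48 to 0.74), and Prelp was next at -0.10 (-0.12 to -0.07). Among 11 collagen receptor and uptake genes, 9 had lower and 0 had higher values beyond counting error, 6 of the lower ones by at least 1.5-fold (median -0.70). Ddr1, a receptor kinase activated by collagen, stood at 70.5 CPM in the entacapone library and 163 CPM in the vehicle library (log2 ratio -1.21, interval -1.32 to -1.10), and Mrc1, an uptake receptor that is also on the macrophage marker list, was at -1.08 (-1.21 to -0.95). Macrophage markers were lower in the entacapone library in 12 of 12, and their part in this list was not tested. Itgb1, the shared integrin beta chain, was within counting error at 0.01 (-0.04 to 0.05), as was Itga10 at 0.27 (-0.55 to 1.09).

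**Figure D5:**
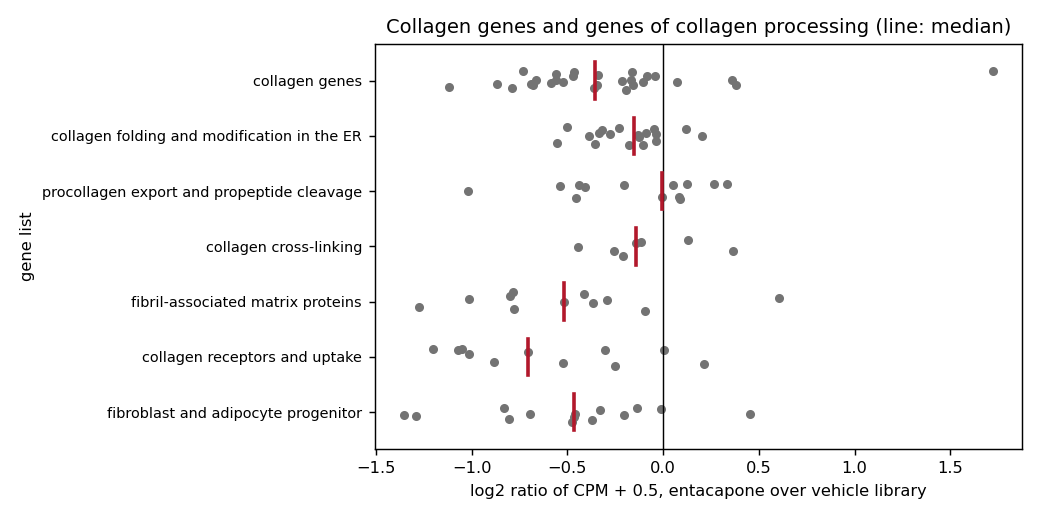
Log2 ratio of CPM + 0.5, entacapone over vehicle library, of measured collagen genes, of 5 lists of genes for collagen processing, fibril-associated matrix and receptors, and of fibroblast and adipocyte progenitor markers (grey points, 1 per gene, with vertical scatter for display). Red lines are list medians, from -0.70 for receptors and uptake to -0.01 for export and cleavage, and the collagen median is -0.35.

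Most markers of fibroblasts, the main makers of fibrillar collagen, were lower in the entacapone library as well. Among 14 fibroblast and adipocyte progenitor markers, 12 had lower and 1 had higher values beyond counting error (median -0.46), and none was at 0. The list as a whole summed to 22676 CPM in the entacapone library and 17154 CPM in the vehicle library, higher in the entacapone library. Gsn, the gene that was higher, took most of this sum, at 21854 CPM in the entacapone library and 15968 CPM in the vehicle library. Without Gsn, a choice made after its values were seen, the other 13 summed to 822 CPM in the entacapone library and 1186 CPM in the vehicle library, 1.44-fold lower. Pdgfra, the defining receptor of these cells, was within counting error at -0.01 (-0.13 to 0.11). Endothelial markers, from cells that make type IV collagen, were lower in 3 and higher in 3 of 10 (median -0.02). Mural cell markers were lower in 6 and higher in 2 of 10 (median -0.14), and adipocyte markers lower in 4 and higher in 6 of 10 (median 0.07).

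Other tissues also differed between the libraries. The 12 macrophage markers summed to 873 CPM in the entacapone library and 1749 CPM in the vehicle library. Hepatocyte markers were lower in 17 of 17, summing to 107 CPM in the entacapone library and 504 CPM in the vehicle library. Of these, Apoa4 (0.156 CPM), Ambp (0.703 CPM) and Serpina1c (0.313 CPM) were under 1 CPM in the entacapone library. They were measured only through their vehicle value, so the limit partly sets their direction. Skeletal muscle markers were higher in 13 of 14, summing to 2132 CPM in the entacapone library and 1399 CPM in the vehicle library. The part of any of these cell types or tissues in the collagen ratios was not tested, and drug and tissue composition cannot be told apart with 1 library per group.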

How the data were processed

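Poly(A)-selected RNA was sequenced on an Illumina HiSeq with a TruSeq RNA v2 kit, which does not mark strand, per the labels' protocols. Values deposited by the authors are raw counts for each Ensembl gene, made with TopHat2 2.1.1 and HTSeq 0.6.0 on mm10, per the submitters' processing notes. The sources used here give no annotation release, HTSeq mode or handling of multiply mapped reads. Symbols, positions, merged exon lengths and transcript GC content came from GENCODE M21 (GRCm38), which matched 35449 of 37315 genes; the 1866 unmatched held 0.188% of the entacapone and 0.181% of the vehicle counts.

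CPM used edgeR 4.0.16 TMM library sizes (factors 0.986 for the entacapone and 1.01 for the vehicle library). Ratios carry exact 95% Clopper-Pearson intervals, and ratios between genes or classes exact conditional intervals (SciPy 1.17.1). List medians used log2 of CPM + 0.5. The intervals cover counting error only, without molecular identifiers. They were tried on simulated data drawn from the same counting model, which cannot show whether that model holds for these libraries. The members, gene lists and limits were chosen with earlier results of these data known. Every member is accounted for, and for each processing list the 2 highest and 2 lowest measured genes are named, by their values on the log2 scale with 0.5 CPM added; other genes named were chosen after their values were seen. Alternatives tried were size factors from DESeq2 1.42.0, total counts, upper-quartile scaling, other limits, a thinned vehicle library, and a loess trend in length and GC content removed.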

Additional observations from a re-analysis of the deposited data

How the results depend on the processing

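Under the alternatives tried, the count of collagen genes at least 1.5-fold lower ran from 7 to 10, except that a 2-fold limit left 1, and the median ratio from -0.46 to -0.22. A minimum of 5 CPM left 0 genes higher, since Col17a1 averages less. The fibrillar sum was -0.51 with DESeq2 size factors, -0.53 with total counts, -0.47 with upper-quartile factors, -0.36 without Col3a1 and -0.53 with the length and GC trend removed (log2). The type IV sum was -0.20, -0.22, -0.17, -0.20 (without Col4a1) and -0.23 under the same 5. The type VI sum was -0.43 with total counts and -0.42 without Col6a2. Without the largest members, the fibrillar over type IV ratio was 0.893 and the fibrillar over type VI ratio turned to 1.04. With the trend removed, the type VI over type IV ratio was 0.882. With the longest transcript as length, shares of the collagen level in the entacapone and then the vehicle library were 39.7% and 44.3% for fibrillar, 36.7% and 32.6% for type IV, and 14.3% and 14.5% for type VI genes. Of 168 single-gene values, 153 stayed within their counting interval. No gene at least 1.5-fold different changed sign, and Col5a3 (trend removed) and Col20a1 (thinned library) did. Trend removal for sums and single genes, and thinning for single genes, were chosen after seeing the data. No paired analysis was possible because each group has 1 library. Depth limits members under 100 reads, whose intervals are wide.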
